A study of Homo sapiens with 4 samples.

Results

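PAGE4, SPANXC, CT45-4, PRAME, TEX14, CCNA1 and TKTL1 are genes whose expression in healthy adults is mostly known from testis and a few other tissues, and several of them belong to the cancer-testis antigens. These 7 genes, of 19304 named on the array, were followed in HEK293, a human embryonic kidney cell line, through every probe annotated to them. They were chosen for their behaviour on these same arrays, so their values below are a description and carry no p-value. Each symbol or synonym was looked up in the annotation of the array's probes, and all 7 genes had at least 1 probe that passed the detection filter.

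RNA levels in 4 stably transfected lines were read on Illumina bead arrays. AIRE1 and AIRE2 are clone-derived lines that expressed the autoimmune regulator AIRE, and AIRE-D312A expressed AIRE with a D312A mutation in the first PHD finger. NC, the control line, expressed yellow fluorescent protein. All the transgenes were driven by the human cytomegalovirus immediate-early promoter. The labels state 3 independent experiments per line, hence 12 arrays. Each line is 1 stable line, so a transgene's effect and other differences between lines cannot be told apart, and p-values cover only the spread between experiments.

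Cancer-testis genes are normally active in male germ cells, and many of them are X-linked. They are kept silent in most other cells by DNA methylation and by repressor complexes bound at their promoters. Tumours and cell lines often express some of them. AIRE acts in the nuclei of thymic medullary epithelium, in which it turns on genes of other tissues, and its first PHD finger binds histone H3 tails that lack methylation.

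Array means ran between 245.6 and 324.3 units of intensity. At a detection p under 0.01, an array detected 15823 to 17288 of its 48701 probes. The detection p-values of the AIRE-D312A replicate 3 array were those of another array, so its detection calls below come from a predicted limit. The AIRE probe averaged 8.90, 8.51 and 8.31 in AIRE1, AIRE2 and AIRE-D312A, and 4.44 in NC, where it was not detected on any array. All levels are normalised log2 intensities of a probe, on which a detected probe lay above roughly 4.80 to 4.95 depending on the array. Of 8 HEK293 marker genes, 7 were detected on all arrays of all lines (not PAX2), with a summed intensity of 3902 to 4854 in AIRE1, 5280 to 9499 in AIRE2, 6236 to 7599 in AIRE-D312A and 8155 to 10307 in NC. By limma, 1 of these 7 markers rose and 4 fell in AIRE1, 3 rose and 2 fell in AIRE2, and 2 rose and 2 fell in AIRE-D312A. With the lines in that order, 5.21%, 5.93% and 2.64% of the 11947 genes tested were called higher than NC. The shares called lower were 3.06%, 3.52% and 1.32%. NEFM, a neurofilament subunit, averaged 5.24, 5.76 and 5.25 in AIRE1, AIRE2 and AIRE-D312A and 8.90 in NC, and INA, another neuronal filament protein, 7.88, 8.29 and 8.13 in the AIRE lines and 7.04 in NC. The part of such differences between the lines in the results below was not tested.

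On all 3 arrays of either AIRE clone, each of the 7 genes was higher than on all 3 arrays of NC. In the D312A mutant 4 of the 7 were higher than NC on all arrays, 1 (PRAME, by a narrow margin) was lower and 2 overlapped. Of all 11947 genes tested, 13.7% were higher on all arrays in AIRE1 and 11.9% were in AIRE2, with 11% in AIRE-D312A, and 9.48% were lower on all arrays in AIRE-D312A. Because the members were picked on these arrays, nothing is read from their counts against those shares. On the log2 scale their median difference from NC was 0.89 (AIRE1), 0.90 (AIRE2) and 0.31 (AIRE-D312A), and the median over all genes tested was 0.01, -0.0012 and 0.0035. The RNA came from whole cultures, so more cells expressing a gene and more RNA per cell cannot be told apart. PAGE4, SPANXC, CT45-4 and CCNA1 were undetected on every NC array and detected on every array of both clones, but not on every array of AIRE-D312A. Of 303 tested genes undetected on every NC array, 82.2% were detected on all arrays of AIRE1, 49.8% in AIRE2 and 26.1% in AIRE-D312A. The detection filter kept such genes only if at least 1 AIRE line detected them on all its arrays. These shares are therefore set in part by the filter, and nothing is read from them.

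**Figure D1:**
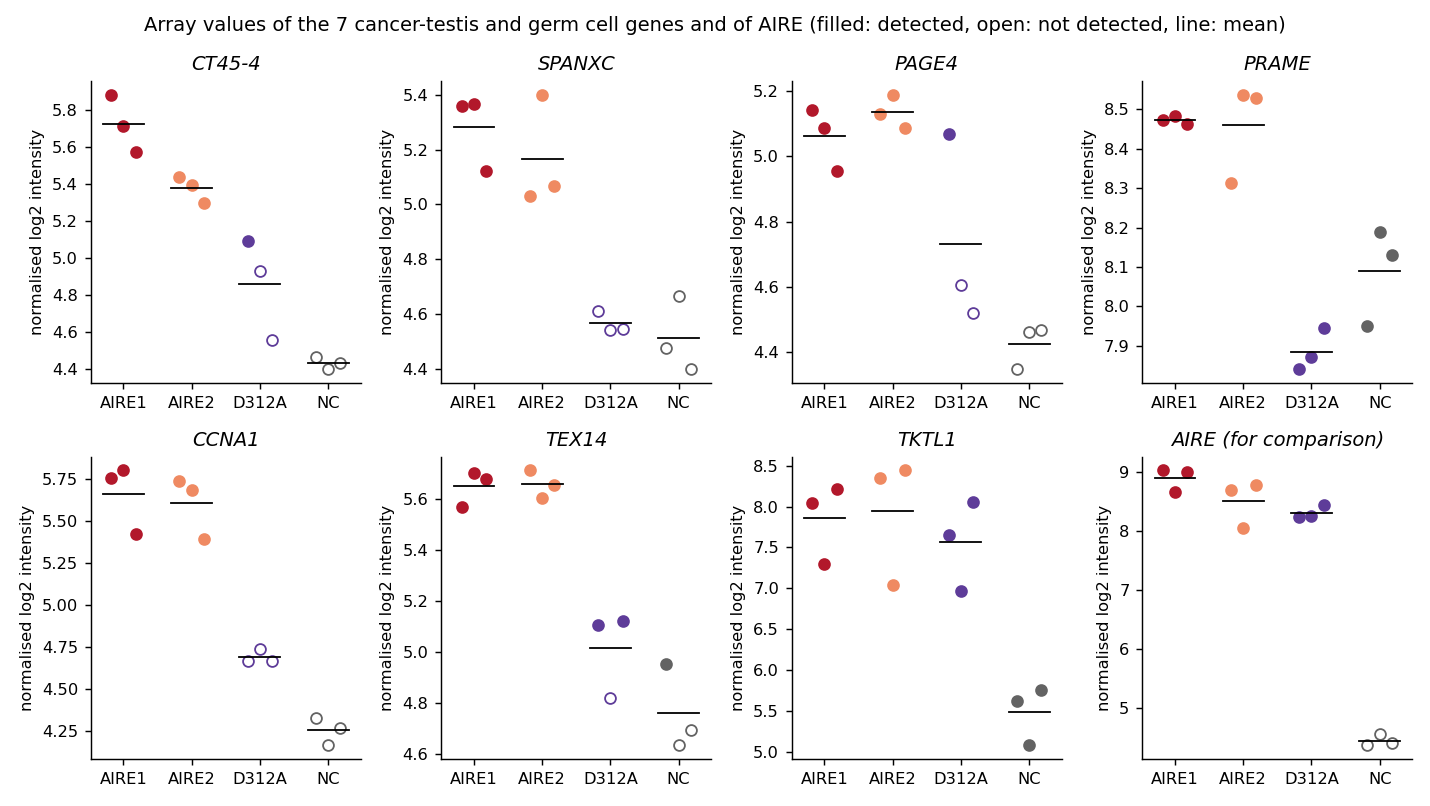
Normalised log2 intensity of each of the 7 genes, and of AIRE for comparison, on every array, with the AIRE1, AIRE2 and AIRE-D312A (D312A) lines left of NC; each panel has its own axis, which does not start at 0. Filled points are arrays on which the probe was detected, open points arrays on which it was not, and the bar is the mean of 3 arrays. PRAME and TKTL1 are detected on every array, whereas PAGE4, SPANXC, CT45-4 and CCNA1 are open on all 3 NC arrays.

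The cancer-testis antigens encoded on the X chromosome come first. CT45-4 belongs to a family of near-identical X-linked genes expressed in testis and in some tumours. It read 5.88, 5.71 and 5.57 in AIRE1, 5.44, 5.40 and 5.30 in AIRE2, 5.09, 4.93 and 4.56 in AIRE-D312A, and 4.47, 4.40 and 4.43 in NC. The lines stood in that order without overlap between any pair, and the probe was detected on all arrays of both clones, on 1 AIRE-D312A array and on no NC array. The difference from NC was 1.29 (AIRE1), 0.95 (AIRE2) and 0.43 (AIRE-D312A), each with an SE of 0.13, or at least 1.72-fold in AIRE1 and at least 1.36-fold in AIRE2 when NC is set at its detection limit. CT45-4 was also the only one of the 7 genes that was higher in AIRE1 than in AIRE2 on all arrays, by 0.34; of all genes tested, 8.77% were.

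The 3 probes annotated to CT45-4 did not read alike. A second probe averaged 5.12 ± 0.19 in AIRE1, 4.94 ± 0.22 in AIRE2, 4.44 ± 0.05 in AIRE-D312A and 4.32 ± 0.06 in NC (SD, n = 3 each), and was detected on 3, 1, 0 and 0 arrays. The third was not detected on any array of any line, with means of 4.50, 4.54, 4.61 and 4.54 in the same order of lines. The other CT45 genes of the annotation (3 genes, each with 1 probe) did not pass the detection filter. The transcripts of this family are close to identical, so which of them the 2 responding probes read is uncertain.

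SPANXC encodes a small protein of the sperm nucleus from a cluster of recent X-linked duplicates. Its levels were 5.36, 5.37 and 5.12 in AIRE1, 5.03, 5.40 and 5.07 in AIRE2, 4.61, 4.54 and 4.55 in AIRE-D312A, and 4.48, 4.67 and 4.40 in NC. Both clones lay above both other lines, and AIRE-D312A overlapped NC, with a difference of 0.05 (SE 0.12). The probe was detected on all 6 clone arrays and on none of the 6 others. AIRE1 was at least 1.27-fold above NC and at least 1.31-fold above AIRE-D312A, and AIRE2 at least 1.17-fold and 1.21-fold.

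Its relative SPANXA2 was the only other SPANX gene past the filter, of 8 others on the array. SPANXA2 read 5.19, 5.35 and 4.96 in AIRE1, 4.55, 5.10 and 4.87 in AIRE2, 4.41, 4.40 and 4.41 in AIRE-D312A, and 4.33, 4.30 and 4.34 in NC. SPANXA2 was no member, and its test is given with the germ cell list below. The promoter windows of both genes, 250 bases before to 50 after the transcript start in RefSeq (GRCh38.p14), were identical at 295 of 300 bases, or 98.3%. They are printed to show how alike these relatives are, and the 5 differing bases are in capitals. SPANXC lies at chrX:141242468-141242767 on the minus strand and SPANXA2 at chrX:141589458-141589757 on the plus strand.
SPANXC: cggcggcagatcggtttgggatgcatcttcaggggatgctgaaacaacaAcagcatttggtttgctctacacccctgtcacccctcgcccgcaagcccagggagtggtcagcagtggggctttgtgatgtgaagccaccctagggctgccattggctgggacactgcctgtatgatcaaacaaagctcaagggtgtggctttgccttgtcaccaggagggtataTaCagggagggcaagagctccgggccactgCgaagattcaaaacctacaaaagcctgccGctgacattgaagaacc
SPANXA2: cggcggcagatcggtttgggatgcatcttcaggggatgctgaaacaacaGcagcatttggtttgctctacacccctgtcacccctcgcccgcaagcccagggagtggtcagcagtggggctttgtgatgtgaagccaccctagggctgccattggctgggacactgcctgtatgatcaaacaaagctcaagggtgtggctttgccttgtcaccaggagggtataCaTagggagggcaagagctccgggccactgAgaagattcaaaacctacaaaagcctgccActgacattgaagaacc

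Because these genes are near-identical copies, a probe named for SPANXC may also read SPANXA2, and their 2 sets of values are not independent observations.

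PAGE4 encodes a small, intrinsically disordered protein of prostate, testis and placenta. It read 5.14, 5.09 and 4.96 in AIRE1, 5.13, 5.19 and 5.09 in AIRE2, 5.07, 4.61 and 4.52 in AIRE-D312A, and 4.35, 4.46 and 4.47 in NC. The clones were close to the detection limit and NC below it, and the first mutant array reached the level of the clones while the other mutant arrays did not. The difference from NC was 0.64 (AIRE1), 0.71 (AIRE2) and 0.31 (AIRE-D312A), each with an SE of 0.13, at least 1.09-fold and 1.15-fold in the clones. AIRE-D312A overlapped AIRE1, 0.33 higher in the clone, and did not overlap AIRE2, 0.40 higher in the clone. None of the other PAGE genes (5 genes, 6 probes) passed the filter.

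The PAGE4 promoter window is printed because PAGE4 is the only matched member whose windows held both of the sequence motifs searched, CACGTG, the E-box bound by MAX with MGA or MYC, and GGCGGGA, a motif of E2F factors; both of its overlapping windows held them, and the first is shown. MGA, MAX and E2F6 are parts of a repressor complex known in mouse for silencing germ line genes. On either strand, CACGTG occurs in 7.26% and GGCGGGA in 15.4% of 35114 such windows. A match is a run of letters, not a binding site. The window lies at chrX:49829010-49829309 on the plus strand of GRCh38.p14, and the capitals mark its 4 CG dinucleotides, the bases at which human DNA is methylated.
PAGE4: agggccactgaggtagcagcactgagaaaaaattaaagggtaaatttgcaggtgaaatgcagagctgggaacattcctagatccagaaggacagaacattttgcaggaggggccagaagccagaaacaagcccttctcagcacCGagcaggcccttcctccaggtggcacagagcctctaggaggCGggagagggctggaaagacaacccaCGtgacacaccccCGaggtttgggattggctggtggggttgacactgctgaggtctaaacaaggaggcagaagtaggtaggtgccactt

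PRAME is a cancer-testis antigen of chromosome 22 that is known to repress signalling by retinoic acid receptors. It was detected on all 12 arrays, with 8.47, 8.48 and 8.46 in AIRE1, 8.31, 8.54 and 8.53 in AIRE2, 7.84, 7.87 and 7.95 in AIRE-D312A, and 7.95, 8.19 and 8.13 in NC. PRAME is the only member for which all mutant arrays were below the lowest control array. The margin was narrow, with the highest mutant array at 7.9453 and the lowest NC array at 7.9497, and raw intensities of these lines overlapped. The clones were higher than NC by 0.38 and 0.37, and AIRE-D312A stood at -0.20 relative to NC (SE 0.09). Against the mutant, AIRE1 was higher by 0.59 and AIRE2 by 0.58. In raw intensity PRAME read 371 to 462 in the clones, 262 to 307 in the mutant and 262 to 333 in NC.

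PRAME's difference from NC in the clones was smaller in the authors' deposited table, which is scaled differently and leaves out replicate 2. The authors' deposited table gives 1 value a line, and PRAME stands there at 278 in AIRE1, 296 in AIRE2, 187 in AIRE-D312A and 268 in NC. On the log2 scale, with 16 added to each of those values, the AIRE1 difference was 0.05 and that of AIRE2 0.14, while the mutant was at -0.49. The difference between each clone and the mutant was 0.54 and 0.62 on that scale. A second PRAME probe was not detected on any array, and none of the 16 other genes of the PRAME family (21 probes) passed the filter.

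CCNA1, TEX14 and TKTL1 are genes of germ cell division and metabolism. CCNA1 encodes cyclin A1, a partner of cyclin-dependent kinases that male mice need for meiosis. Its levels were 5.76, 5.80 and 5.43 in AIRE1, 5.74, 5.69 and 5.39 in AIRE2, 4.67, 4.74 and 4.66 in AIRE-D312A, and 4.33, 4.16 and 4.27 in NC. The clones overlapped each other and lay apart from the mutant, and the mutant lay apart from NC while staying below the detection limit. The difference from NC was 1.41 in AIRE1 and 1.35 in AIRE2 (SE 0.12), at least 1.65-fold and 1.59-fold. In AIRE-D312A it was 0.44, between values that were both undetected, so no fold is given. CCNA1 was at least 1.70-fold and 1.64-fold higher in the clones than in the mutant. The somatic relative CCNA2, cyclin A2, averaged 10.25, 10.27, 10.31 and 10.39 in AIRE1, AIRE2, AIRE-D312A and NC.

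The CCNA1 promoter window is shown as the member window richest in CG dinucleotides, with 35 against a median of 14 in all windows. Of all windows, 85.9% held fewer. It lies at chr13:36431705-36432004 on the plus strand of GRCh38.p14, and each CG is in capitals.
CCNA1: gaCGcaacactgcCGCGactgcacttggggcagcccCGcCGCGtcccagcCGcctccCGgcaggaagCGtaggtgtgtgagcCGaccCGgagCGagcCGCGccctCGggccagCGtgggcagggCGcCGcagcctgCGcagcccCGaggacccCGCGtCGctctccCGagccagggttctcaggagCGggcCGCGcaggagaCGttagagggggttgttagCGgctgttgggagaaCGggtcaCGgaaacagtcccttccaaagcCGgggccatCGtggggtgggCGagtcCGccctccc

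TEX14 encodes a protein that in mouse keeps the bridges between dividing germ cells open by blocking the last step of cytokinesis. It read 5.57, 5.70 and 5.68 in AIRE1, 5.71, 5.61 and 5.66 in AIRE2, 5.11, 4.82 and 5.12 in AIRE-D312A, and 4.95, 4.64 and 4.69 in NC. The clones were tight, with SDs of 0.07 and 0.05, and stood above both other lines, which overlapped each other. The probe was detected on 2 AIRE-D312A arrays and on 1 NC array. The difference from NC was 0.89 (AIRE1), 0.90 (AIRE2) and 0.26 (AIRE-D312A), each with an SE of 0.11, and against the mutant 0.63 and 0.64. A second TEX14 probe was not detected on any array.

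TKTL1 encodes a transketolase-like protein, related to the enzyme of the pentose phosphate pathway. It read 8.05, 7.30 and 8.22 in AIRE1, 8.35, 7.04 and 8.44 in AIRE2, 7.65, 6.97 and 8.06 in AIRE-D312A, and 5.63, 5.08 and 5.76 in NC. TKTL1 had the largest difference from NC of the 7 genes in each line, 2.37 (AIRE1), 2.46 (AIRE2) and 2.07 (AIRE-D312A), each with an SE of 0.39. The 3 AIRE lines overlapped each other, and the clones exceeded the mutant by 0.29 and 0.38 only. TKT averaged 12.26, 12.26, 12.33 and 12.19 in AIRE1, AIRE2, AIRE-D312A and NC, and TKTL2 was not detected in any line.

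The replicate 2 arrays had the lowest TKTL1 level in every line. Set against the mean of replicates 1 and 3, replicate 2 stood at -0.83 in AIRE1, -1.35 in AIRE2, -0.89 in AIRE-D312A and -0.61 in NC. No other member had replicate 2 below the mean of the other arrays in all 4 lines, and their deviations lay between -0.29 and 0.35. The order of lines within each replicate was the same as in the means for TKTL1 in replicates 1 and 3, and in replicate 2 AIRE1 was above AIRE2.

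The TKTL1 window, printed as the one with a middling CG count among the members that differed most, held 18 CG dinucleotides, more than 55.5% of windows. It lies at chrX:154295545-154295844 on the plus strand of GRCh38.p14, and each CG is in capitals.
TKTL1: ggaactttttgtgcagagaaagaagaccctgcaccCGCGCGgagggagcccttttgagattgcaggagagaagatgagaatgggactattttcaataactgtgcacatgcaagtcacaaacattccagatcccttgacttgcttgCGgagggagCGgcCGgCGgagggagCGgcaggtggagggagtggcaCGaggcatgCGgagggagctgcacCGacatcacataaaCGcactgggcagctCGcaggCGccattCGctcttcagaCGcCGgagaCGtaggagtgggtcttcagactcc

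Promoter entries were matched for 5 of the 7 genes, and none was matched for CT45-4 and TEX14. A CG count above 8 was held by the first windows of CCNA1, TKTL1 and PRAME (13), and SPANXC held 8. Genes with a second RefSeq start had lower or similar counts there, 8 for TKTL1, 5 for PAGE4, and 12 and 4 for PRAME. CCNA1 and PAGE4 held 35 and 4 CG dinucleotides in their first windows, and their levels correlated at r = 0.890 over the 12 arrays. Any relation between CG count and level was not tested.

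**Figure D2:**
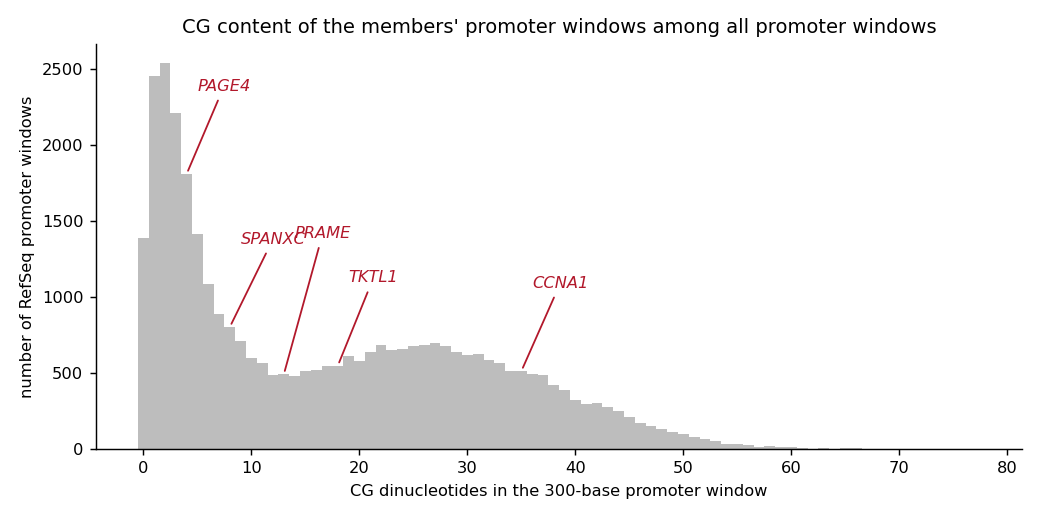
Histogram of the number of CG dinucleotides (horizontal axis) in 35114 RefSeq promoter windows of 300 bases (vertical axis, number of windows), with the 5 matched members marked at the count of their first window. PAGE4 lies at 4 in the CG-poor peak, SPANXC at 8, PRAME at 13, TKTL1 at 18 and CCNA1 at 35 in the CG-rich peak.

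The mutant's difference from NC varied widely among the 7 genes. For TKTL1, which was detected on every array, it was 86.0% of the mean difference of both clones, and for PRAME, also detected on every array, it had the opposite sign. No such share is given for the other 5 genes, because NC was undetected on at least 2 of its 3 arrays. AIRE1 exceeded AIRE-D312A on all arrays for 5 of the 7 genes and AIRE2 for 6 of 7, with median differences of 0.63 and 0.58. Among all genes tested, 11.4% were higher on all arrays in AIRE1 and 9.37% in AIRE2 against the mutant. The exceptions were TKTL1 in both clones and PAGE4 in AIRE1. Between arrays of the same replicate number, all 7 genes were higher in the clone than in the mutant in each of the 3 pairs, for both clones. The share of all genes meeting this paired rule was not computed. As the members were picked on these arrays, nothing is read from this count. For TKTL1 these paired differences were 0.39, 0.33 and 0.16 in AIRE1 and 0.69, 0.07 and 0.38 in AIRE2, and for PAGE4 in AIRE1 they were 0.08, 0.48 and 0.44. The comparisons with NC share the NC arrays and those with the mutant share the mutant arrays, so their values are given side by side and not as repeats of each other.

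**Figure D3:**
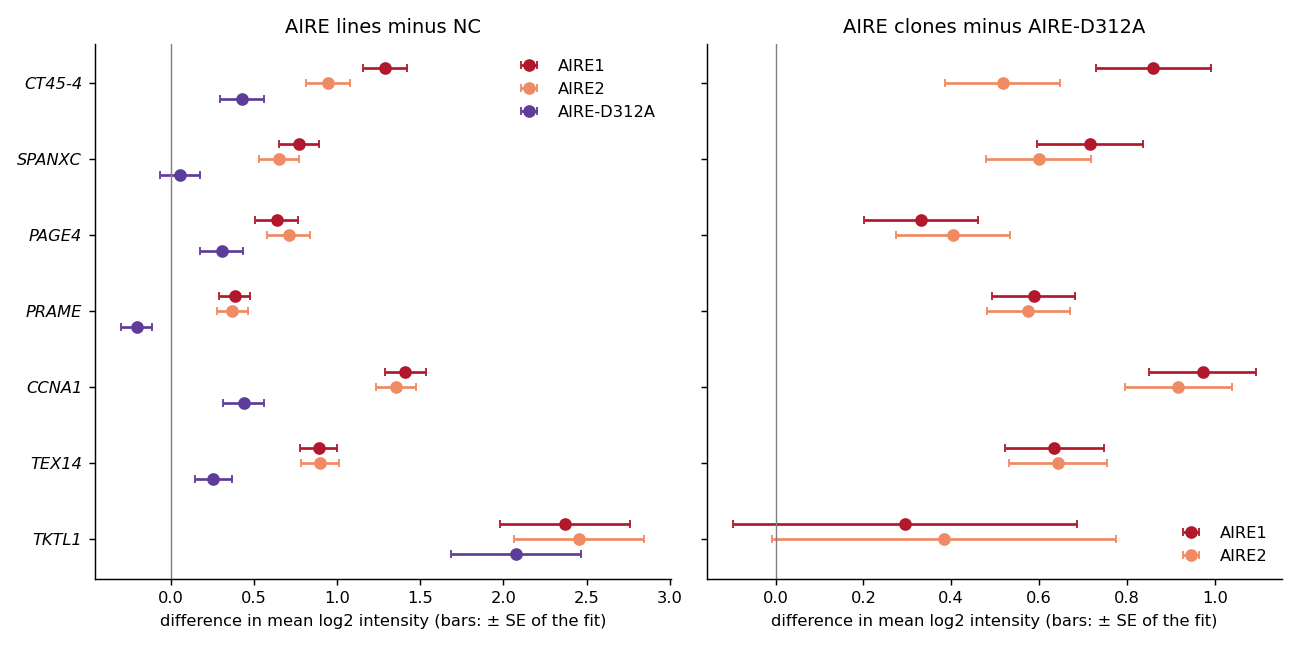
Difference in mean normalised log2 intensity for each of the 7 genes (horizontal axis; points are differences, bars ± SE of the limma fit), for AIRE1, AIRE2 and AIRE-D312A minus NC on the left and for AIRE1 and AIRE2 minus AIRE-D312A on the right. In the left panel TKTL1 lies beyond 2 in all lines and the mutant's point for PRAME lies below 0; in the right panel TKTL1 has the widest bars.

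On the arrays in which they were followed, the members tracked each other to different degrees. Over the 12 arrays, which share the 4 lines, Pearson's r between pairs ran between 0.351 (PRAME with TKTL1) and 0.949 (TEX14 with CCNA1). The genes most like PAGE4 among all tested were CCDC24 (r = 0.937), OAS3 (0.937) and TNFRSF11B (0.933), and those most like SPANXC were GCH1 (0.963), LINC00960 (0.956) and NMUR2 (0.949). CT45-4 was most like LY6G6D (0.974), SPP1 (0.973) and STX11 (0.972). For PRAME the closest were NMUR2 (0.909), NAP1L3 (0.892) and the fellow member SPANXC (0.888). TEX14 was most like SCARA3 (0.972), TMEM47 (0.967) and THBS2 (0.959), CCNA1 like OAS3, LY6G6D and ARHGEF16 (each 0.971), and TKTL1 like LPL (0.983), IRS2 (0.978) and SPINT2 (0.976). OAS3, LY6G6D and NMUR2 each came up for more than 1 member. These correlations carry no p-value, because the 12 arrays are 4 lines with 3 arrays each.

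To set the members among other germ cell genes, 201 further genes of the germ line were listed: cancer-testis antigens, members' families, germ line and piRNA genes, meiosis genes and genes of spermatids or with testis-derived names. Of these, 180 were on the array and 50 passed the detection filter, that is, were detected on all arrays of at least 1 line. Against NC, 6 of the 50 rose and 3 fell in AIRE1, and 8 rose and 3 fell in AIRE2 (limma, Benjamini-Hochberg adjusted p under 0.05). Over all genes tested, the calls made up 5.21% (higher) and 3.06% (lower) for AIRE1, and 5.93% and 3.52% for AIRE2. In AIRE-D312A 0 rose and 1 fell, against 2.64% and 1.32% of all genes; 10 of the 50 had an unadjusted p under 0.05. The median difference of the 50 was 0.10 (AIRE1), 0.08 (AIRE2) and 0.01 (AIRE-D312A). The list was drawn up with earlier results of these data known. Its counts beside the shares of all genes are therefore a description, and no excess is read from them.

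The replicate numbers pair the arrays, and with replicate as a block AIRE1 had 14 genes called higher and 6 lower, AIRE2 had 12 and 4, and AIRE-D312A had 7 and 7. In that fit the share of all genes called higher was 12.6%, 14.2% and 8.72% for the same lines, and the share called lower 10.2%, 12.5% and 7.74%. A gene that was undetected in NC could enter the 50 only by being higher elsewhere, which holds for XAGE1A, SPANXA2 and MLH3.

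Of the members' families, SPANXA2 and XAGE1A, an X-linked cancer-testis antigen, rose in both clones. SPANXA2 was at least 1.18-fold higher in AIRE1 than in NC (adjusted p = 0.00215) and higher by 0.52 on the log2 scale in AIRE2 (0.0329), where 2 of 3 arrays detected it. XAGE1A was higher by 0.45 in AIRE1 (0.0212) and 0.44 in AIRE2 (0.0226), at least 1.02-fold and 1.01-fold, with 2 of 3 AIRE2 arrays detected. In AIRE-D312A neither was detected. Both genes were undetected in NC and passed the filter only through AIRE1, so nothing further is read from their calls. Of the other cancer-testis antigens, 8 were measured. SPA17, a sperm surface protein, rose by 0.50 in AIRE1 (0.00861) and 0.60 in AIRE2 (0.00261), with means of 9.09, 9.19, 8.90 and 8.59 in AIRE1, AIRE2, AIRE-D312A and NC. DCAF12, a substrate receptor of a ubiquitin ligase, rose by 0.33 in AIRE2 (0.0384).

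Among 12 measured genes of the germ line and piRNA pathway, 0 rose and 2 fell in AIRE1, and 1 rose and 2 fell in AIRE2. ZBTB16, a transcription factor of spermatogonial stem cells in mouse, read 5.65 in AIRE1, 6.09 in AIRE2, 5.94 in AIRE-D312A and 6.54 in NC. Relative to NC it stood at -0.88 (0.000391), -0.44 (0.0257) and -0.60 (0.0103). In the fit without a replicate term it was the only listed germ cell gene called in the mutant. With replicate as a block, 7 listed germ cell genes were called higher and 7 lower there, beside 8.72% and 7.74% of all genes. LIN28B, an RNA-binding protein that blocks let-7 maturation, fell by 0.42 in AIRE1 (0.035) and 0.44 in AIRE2 (0.0261). KIT, the stem cell factor receptor of early germ cells, rose by 0.74 in AIRE2 (0.0106).

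Of 9 measured meiosis genes, CPEB1, a regulator of mRNA translation in oocytes, rose by 0.63 in AIRE1 (0.0444) and 0.88 in AIRE2 (0.00713). MLH3, a mismatch repair protein of meiotic crossovers, rose at least 1.07-fold in AIRE1 (0.0288). MLH3 was undetected in NC and passed the filter only through AIRE1, so nothing further is read from its call. TRIP13, an ATPase of meiotic chromosomes and of the spindle checkpoint, fell by 0.86 in AIRE1 (0.000253), with means of 10.49 in AIRE1, 11.35 in AIRE2, 11.21 in AIRE-D312A and 11.36 in NC. Of 19 genes with sperm or testis names, SPAG16, a protein of the sperm axoneme, rose by 0.54 in AIRE1 (0.0344) and 0.65 in AIRE2 (0.0129). TEX30 rose by 0.58 in AIRE2 (0.0218), and ODF2, a protein of sperm tails and centrosomes, fell by 0.51 there (0.0363). Leaving out each of the 12 arrays in turn kept the calls of SPA17, KIT and TRIP13 against NC, of SPANXA2 and ZBTB16 in AIRE1 and of CPEB1 in AIRE2; each other call of this list against NC was lost without at least 1 array. When quantile normalisation was replaced by median centring, XAGE1A, LIN28B, DCAF12, TEX30 and ODF2 were not called, nor were SPANXA2 in AIRE2 and ZBTB16 in AIRE2 and AIRE-D312A. With 50 in place of 16 added to each intensity after background correction, XAGE1A in both clones, SPANXA2 in AIRE2, and MLH3 and CPEB1 in AIRE1 were not called, and CPEB1 in AIRE1 was not called without the detection filter either.

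Against the mutant, 1 of the 50 genes rose and 1 fell in AIRE1, with 1.56% and 0.778% of all genes called in those directions. SPANXA2 was at least 1.21-fold higher (adjusted p = 0.0124) and TRIP13 fell by 0.72 (0.00293), a call that median centring did not give. SPANXA2 was undetected on every mutant array and passed the filter only through AIRE1. It could therefore enter this test only by being higher there, and nothing further is read from its call. In AIRE2 none of the 50 was called by limma, against 1.34% and 0.879% of all genes, and 8 had an unadjusted p under 0.05. With replicate as a block AIRE1 had 9 higher and 3 lower (5.92% and 3.87% of all genes) and AIRE2 had 9 and 2 (8.15% and 7.5%). Between the clones, 0 of the 50 were called higher in AIRE1 and 1, TRIP13, lower; of all genes, 1.28% and 1.02% were. That call too was not given with median centring.

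**Figure D4:**
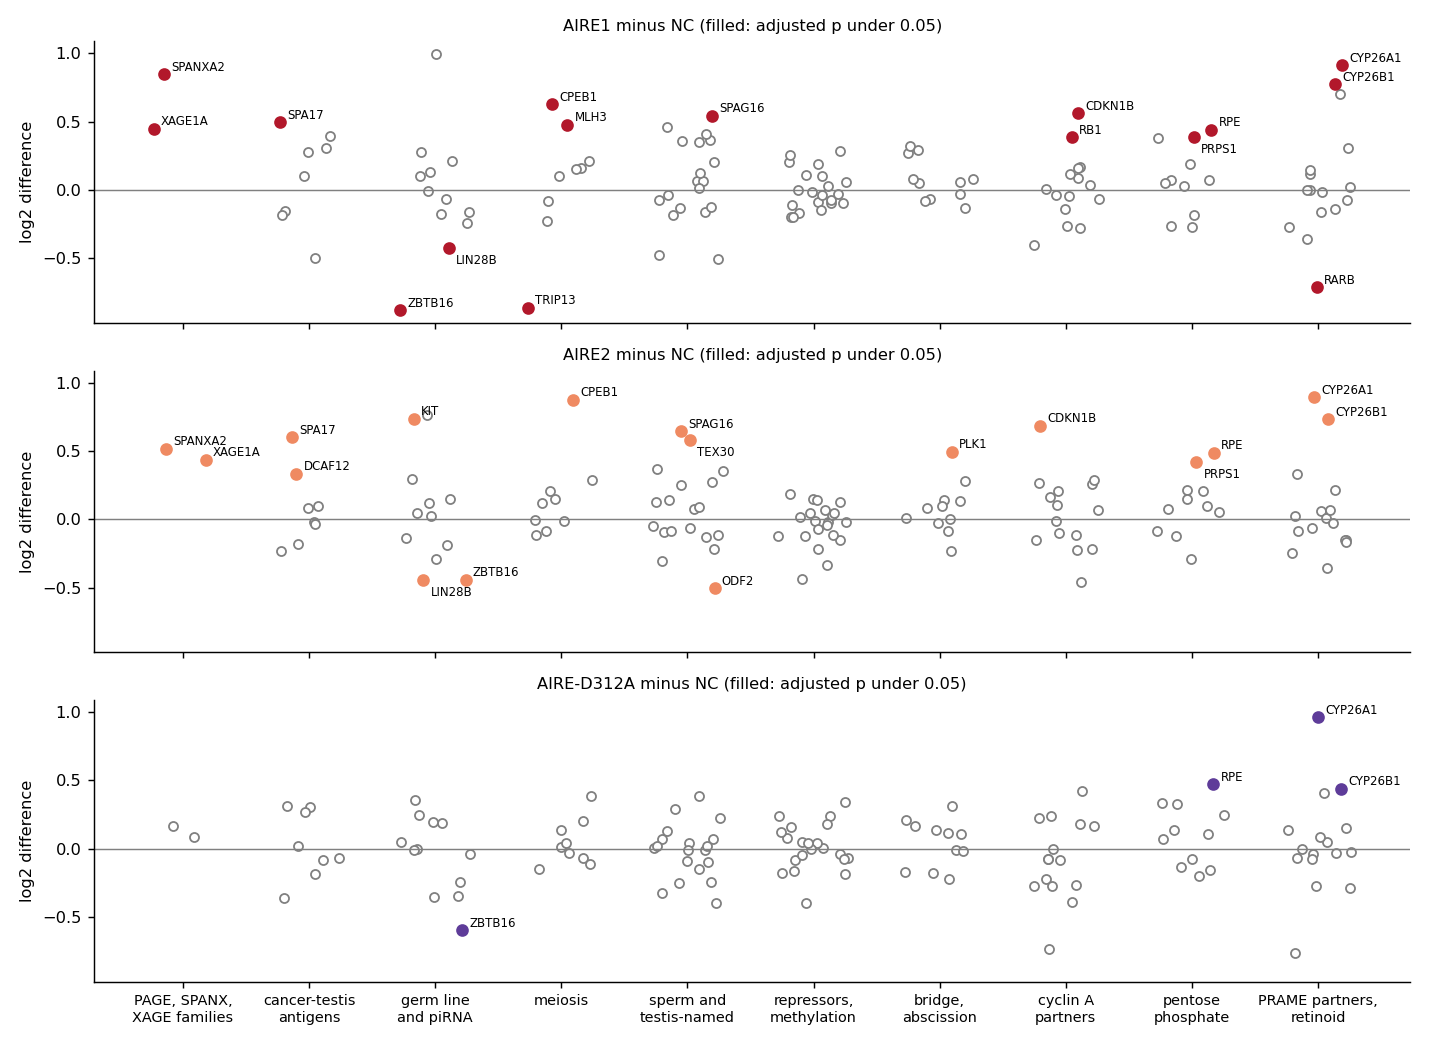
Log2 difference from NC (vertical axis) of each measured gene of the 5 germ cell lists (left) and of the 5 lists of the members' known partners and regulators (right), for AIRE1, AIRE2 and AIRE-D312A in the upper, middle and lower panels; horizontal scatter within a list has no meaning. Filled and named points have an adjusted p under 0.05, open points do not; in the repressor and methylation list no point is filled in any line.

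The genes around the members' known functions were listed as well, 90 genes in all, of which 74 were measured. In AIRE1 6 rose and 1 fell, in AIRE2 6 rose and 0 fell, and in AIRE-D312A 3 rose and 0 fell. That is 8.11%, 8.11% and 4.05% of the 74 called higher, where 5.21%, 5.93% and 2.64% of all genes were; 14, 18 and 14 had an unadjusted p under 0.05. With replicate as a block these became 10 and 5, 10 and 9, and 8 and 6, beside 12.6%, 14.2% and 8.72% of all genes higher and 10.2%, 12.5% and 7.74% lower. The median difference was 0.02 (AIRE1), 0.02 (AIRE2) and -0.0023 (AIRE-D312A). This list too was drawn up with earlier results known, so its counts are a description.

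The machinery that silences germ cell genes was looked at next. Of 21 measured DNA methyltransferases, methyl-CpG binders, histone modifiers and E2F6 or MGA complex genes, 0 passed the limma test in AIRE1, AIRE2 or AIRE-D312A, where 5.21%, 5.93% and 2.64% of all genes rose and 3.06%, 3.52% and 1.32% fell. In these lines 1, 3 and 1 of the 21 had an unadjusted p under 0.05. The 21 include DNMT1, DNMT3B, UHRF1, SETDB1, TRIM28, E2F6, MGA, MAX and PCGF6. With replicate as a block, 1 rose in AIRE1, 3 fell in AIRE2 and 1 fell in AIRE-D312A, against 12.6% of all genes higher in AIRE1 and 12.5% and 7.74% lower in AIRE2 and AIRE-D312A. The median difference of the 21 was -0.03, -0.02 and 0.01.

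Around PRAME, whose known target is the retinoic acid receptor, the retinoic acid degrading enzymes CYP26A1 and CYP26B1 rose in every AIRE line. CYP26A1 averaged 8.78, 8.76 and 8.83 in AIRE1, AIRE2 and AIRE-D312A and 7.87 in NC, differences of 0.91 (adjusted p = 0.000682), 0.89 (0.000831) and 0.96 (0.0012). CYP26B1 rose by 0.77 (0.000387), 0.73 (0.000574) and 0.44 (0.0254). RARB, a retinoic acid receptor and target of retinoic acid, fell by 0.71 in AIRE1 (0.000762), with levels of 6.67 in AIRE1, 7.13 in AIRE2, 7.30 in AIRE-D312A and 7.38 in NC. PRAME itself was higher than NC in the clones and, by a narrow margin, lower in the mutant. Any link between PRAME and these retinoic acid genes was not tested.

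Around CCNA1, the kinase inhibitor CDKN1B rose by 0.56 in AIRE1 (0.0458) and 0.68 in AIRE2 (0.016), and RB1, the retinoblastoma protein, by 0.39 in AIRE1 (0.047). Around TKTL1, RPE, an enzyme of the pentose phosphate pathway, rose in all 3 AIRE lines, by 0.44 in AIRE1 (0.0348), by 0.49 in AIRE2 (0.0199) and by 0.47 in AIRE-D312A (0.0432). PRPS1, which makes the activated ribose of nucleotide synthesis, rose by 0.39 (0.0289) and 0.42 (0.0178) in the clones. Around TEX14, PLK1, a mitotic kinase that acts in abscission, rose by 0.50 in AIRE2 (0.00519). Of these companion calls against NC, those of CYP26A1, RARB and PLK1 and of CYP26B1 in the clones were kept with each array left out in turn, and each of the others was lost without at least 1. RPE, PRPS1 and RARB, and CYP26B1 in AIRE-D312A, were not called with median centring, CYP26B1 in AIRE-D312A not with 50 added, and CDKN1B in AIRE1 not without the detection filter.

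Genes next to the members along the chromosome were compared through the order of genes in RefSeq, taking the nearest 2 measured genes on each side, 28 in all. Against NC 4 of them rose in either clone and 2 in AIRE-D312A, and none fell. Of all genes, 5.21%, 5.93% and 2.64% rose and 3.06%, 3.52% and 1.32% fell in AIRE1, AIRE2 and AIRE-D312A. With 28 genes, nothing is read from these counts. Of the genes called, SPANXA2 and SERTM1 were undetected in NC and could enter only by being higher elsewhere. SPANXA2 is also counted in the germ cell list. The median differences of the 28 genes were 0.06, 0.08 and 0.02. Beside TEX14, RNF43, a ubiquitin ligase that limits WNT signalling, rose by 0.90 in AIRE1 (adjusted p = 0.000261), by 0.71 in AIRE2 (0.00132) and by 0.47 in AIRE-D312A (0.0287). Beside CCNA1, SERTM1 was undetected on every NC array and so entered the test only through the clones, where it was at least 1.03-fold (AIRE1, 0.0024) and 1.04-fold (AIRE2, 0.00231) higher. It was also called in AIRE-D312A (0.0308), where 1 of 3 arrays detected it. PPP1R3F beside PAGE4 rose by 0.62 in AIRE1 (0.00263) and RTL8A beside CT45-4 by 0.47 in AIRE2 (0.00597). CT45-4 had no RefSeq entry of its own and was placed at its relative CT45A3, so its neighbours are those of CT45A3. SPANXA2 beside SPANXC has been given above, and none of the genes beside PRAME or TKTL1 passed the test. The RNF43 and SERTM1 calls in AIRE-D312A were lost without NC replicate 1 or 3, among other arrays, and with median centring, and that of SERTM1 with 50 added. The RTL8A call in AIRE2 was kept without each array in turn and was not given with median centring.

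**Figure D5:**
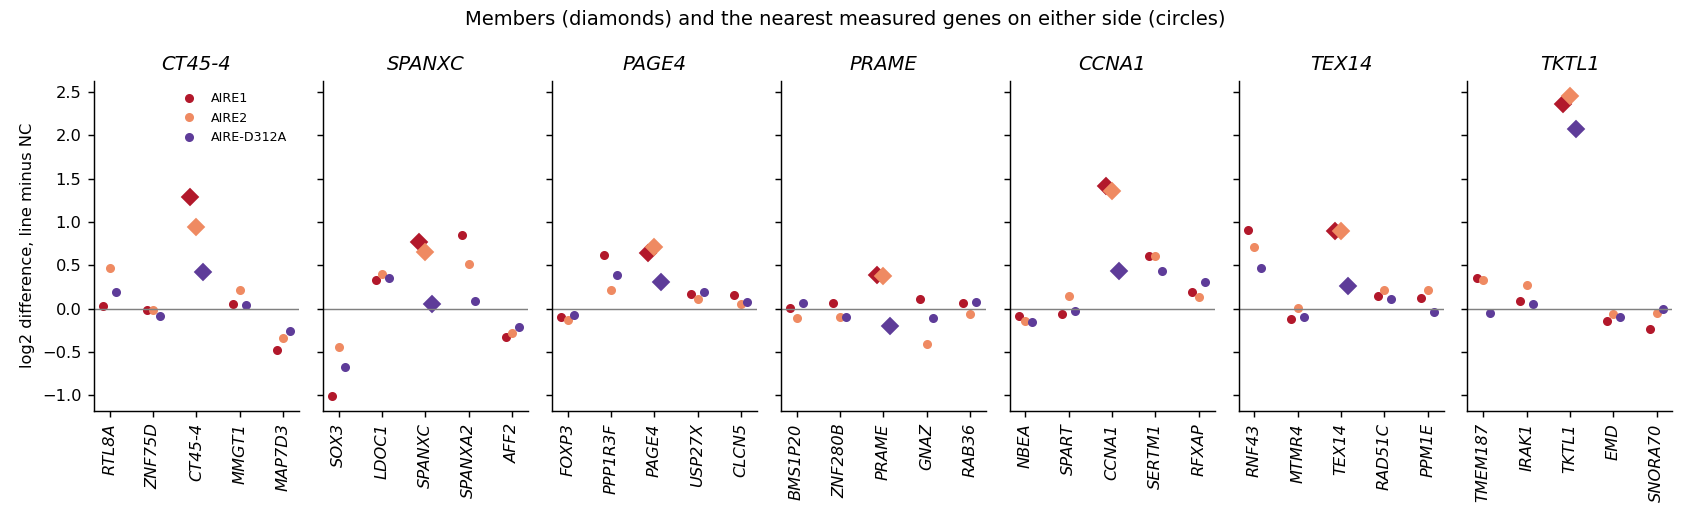
Log2 difference from NC (vertical axis) of each member (diamonds) and of the nearest 2 measured genes on either side in RefSeq order (circles, in chromosome order; distance is not shown), for AIRE1, AIRE2 and AIRE-D312A. TKTL1 lies above 2 in all lines while its 4 neighbours lie between -0.24 and 0.36. RNF43 lies at 0.90 in AIRE1, as high as TEX14 at 0.89. CT45-4 is placed at its relative CT45A3.

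4 of the 7 members lie on the X chromosome. Of 422 other measured X-linked genes, 8.53% rose and 2.37% fell (AIRE1), 10.2% rose and 1.42% fell (AIRE2) and 3.55% rose and 1.66% fell (AIRE-D312A). Over all genes tested, the shares were 5.21% higher with 3.06% lower for AIRE1, 5.93% with 3.52% for AIRE2 and 2.64% with 1.32% for the mutant.

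Germ cell markers were looked at directly. None of 8 defining genes (DDX4, DAZL, SYCP3, PRM1, PRM2, TNP1, PIWIL1 and STRA8) was detected on all arrays of any line, and only TNP1 was detected on any array, in AIRE-D312A. Their summed intensity was 450 to 464 in AIRE1, 445 to 482 in AIRE2, 433 to 487 in AIRE-D312A and 465 to 477 in NC, where 8 negative controls would sum to 451.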

How the data were processed

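Per the file headers, each deposited array file gives 1 average intensity per probe on a linear scale and a detection p-value; the submitters' processing notes name BeadStudio 3.1.3.0. The authors' deposited value table gives 1 intensity per probe and line, and each column equalled a rescaled mean of replicates 1 and 3; it served as an alternative. The detection p-values of the AIRE-D312A replicate 3 array equalled those of AIRE1 replicate 3 and were replaced by limits predicted from its 40th percentile (98.86 to 99.93% of calls right on the other 11 arrays).

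Intensities were background-corrected by normexp with an offset of 16, quantile-normalised and log2-transformed (limma 3.58.1, R 4.3.3). Probes detected on all 3 arrays of a line were kept, the brightest per gene, giving 11947 genes. All 12 arrays entered 1 limma fit without a replicate term, with adjustment over all genes per contrast; it was tested on simulated data. Where the dimmer line was undetected on all arrays, "at least" folds set it at its detection limit.

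Replicate numbers pair the arrays: deviations from line means correlated at 0.333 to 0.848 within a number over 18 pairs, and at -0.744 to 0.529 between numbers over 36.

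Members and lists were chosen with earlier results of these data known. The text names all members, list genes called in an AIRE line, the 3 genes most correlated with each member and called neighbours. With 3 arrays per line, the number of arrays limits the precision.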

Additional observations from a re-analysis of the deposited data

Results flagged for a closer look

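The 2 AIRE clones differed in 3 listed genes by the limma contrast between them, with 50 germ cell and 74 companion genes measured. Of all genes tested, 1.28% were called higher and 1.02% lower in AIRE1 than in AIRE2, and nothing is read from the count. TRIP13 stood at -0.86 in AIRE1 relative to AIRE2 (adjusted p = 0.00102), CCNB2, a mitotic cyclin, at 0.38 (0.0365) and RARB at -0.46 (0.0328). The CCNB2 call was lost on leaving out any of 11 of the 12 arrays, and the RARB call on leaving out any of 8; with median centring none of the 3 was called. Against AIRE-D312A, AIRE1 had 1.56% of all genes called higher and 0.778% lower. Among the listed genes, AIRE1 differed from the mutant in SPANXA2 by 0.76 (0.0124), in TRIP13 by -0.72 (0.00293), in CCNB2 by 0.44 (0.0175) and in RARB by -0.64 (0.00491). Of these, TRIP13, CCNB2 and RARB were not called with median centring, and CCNB2 was lost on leaving out any of 5 arrays and SPANXA2 any of 5. None of these genes was called between AIRE2 and AIRE-D312A. SPANXA2, undetected on every mutant array, passed the filter only through AIRE1.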

How the results depend on the processing

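The 44 calls of listed genes were all kept with the replicate block; 42 were kept with no detection filter, 38 with an offset of 50, 21 with median centring and 17 with each array left out in turn. Counts are given as higher and lower. Germ cell list: AIRE1 against NC had 6 and 3, with the block 14 and 6, and 3 higher with offset 50. AIRE2 had 8 and 3, and with median centring 4 and 0. AIRE-D312A had 0 and 1, with the block 7 and 7, with every probe 1 higher, and with median centring 0 lower. AIRE1 against AIRE-D312A had 1 and 1, with the block 9 and 3, and with median centring 0 lower. AIRE2 against AIRE-D312A had 0 and 0, with the block 9 and 2, and with every probe 1 lower. Companion list: AIRE1 had 6 and 1, with the block 10 and 5, and 0, 2 and 2 lower with median centring, offset 50 and no filter. AIRE2 had 6 and 0, with the block 10 and 9. AIRE-D312A had 3 and 0, with the block 8 and 6, and with median centring 1 higher. Leaving out arrays, the germ cell list ranged over 2 to 7 and 2 to 4 in AIRE1, 4 to 7 and 0 to 3 in AIRE2, 0 to 1 and 0 to 1 in AIRE-D312A, 0 to 2 and 1 to 1 in AIRE1 against AIRE-D312A, and 0 to 0 and 0 to 0 in AIRE2 against AIRE-D312A. The companion list ranged over 2 to 6 and 1 to 1, 3 to 6 and 0 to 3, and 1 to 4 and 0 to 0 in the same order of lines against NC. Germ cell genes higher in AIRE1 numbered 2 without AIRE1 replicate 1 or 2 and 3 without AIRE1 or NC replicate 3. Those higher in AIRE2 numbered 4 without AIRE2 replicate 1 and 5 without AIRE2 replicate 3 or any 1 NC array, and those lower numbered 1 without AIRE2 replicate 1 and 0 without AIRE2 replicate 3, NC replicate 1 or NC replicate 3. In AIRE-D312A the single gene was lost without NC replicate 3, and 1 rose without NC replicate 1. SPANXA2 against AIRE-D312A was lost without AIRE1 replicate 1 or 2 or any 1 mutant array, and 2 genes were higher without AIRE2 replicate 1, AIRE2 replicate 2 or NC replicate 2. Companion genes higher in AIRE1 numbered 2 without NC replicate 1 and 3 without AIRE1 replicate 1 or 2, AIRE-D312A replicate 1 or 3, or NC replicate 3. In AIRE2 they numbered 3 without NC replicate 1, and 3 fell without AIRE2 replicate 2. In AIRE-D312A they numbered 1 without any 1 mutant array, NC replicate 1 or NC replicate 3. The cause was not tested. Median centring moved the median of all genes to 0.14 in AIRE1. The members' 35 differences kept their sign in all these settings, except TKTL1 in AIRE1 against the mutant without AIRE-D312A replicate 2 and SPANXC in the mutant against NC without NC replicate 3; 25 moved by over 1 SD with offset 50 and 13 in the authors' table. 5 of the 7 members lie near the detection limit, where signal over background limits every value.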

Other observations

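GAGE7B, an X-linked cancer-testis antigen outside the lists and chosen after its values were seen, averaged 5.55 ± 0.07 in AIRE1, 5.28 ± 0.25 in AIRE2, 5.22 ± 0.33 in AIRE-D312A and 4.77 ± 0.20 in NC (SD, n = 3 each), and was detected on 3, 3, 2 and 1 arrays. Its second probe was not detected on any array. Of 10 listed genes of somatic testis cells, 4 were detected on some NC array: AMH, GATA4, INSL3 and SOX9. The others, INHA, STAR, CYP17A1, HSD17B3, FSHR and LHCGR, were not detected on any array of any line. The summed intensity of the 10 genes was 847 to 923 in AIRE1, 783 to 956 in AIRE2, 778 to 946 in AIRE-D312A and 880 to 936 in NC.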
